A study of Arabidopsis thaliana with 20 samples.

Results

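Suspension-cultured T87 cells, a line of Arabidopsis thaliana of the Columbia (Col-0) ecotype, were held at 4 °C for 6 h and then given cordycepin, and their total RNA was hybridised to 1 Affymetrix ATH1 array before the drug and 1 array each after 4, 8 and 12 h of it. These 4 arrays, taken by their titles, are 4 of the 20 in the series. The other cold cells had spent 12, 24 or 36 h at 4 °C before the same cordycepin times (12 arrays), and the control cells were kept at 22 °C and sampled at 0, 0.5, 2 and 4 h of cordycepin (4 arrays). Cold cells stood in light of 40 µmol per square metre and second, and cells at 22 °C in 80, so cold and light intensity cannot be told apart in any comparison with 22 °C. Each of the 20 conditions has 1 array, and a p-value here measures the scatter of arrays about straight lines over time, not the spread between cultures. The titles and the design text name the 6 h exposure, whereas the growth protocol lists exposures of 12, 24 and 36 h, and the temperature during the cordycepin hours is not given in the sources used here.

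Cordycepin is an adenosine analogue that lacks the 3′ hydroxyl group, so that an RNA chain that takes it up cannot be extended, and in plant cells it is used to stop new transcription and to follow the loss of the transcripts already made. Cold acclimation in Arabidopsis runs through fast regulators, among them the CBF factors, which switch on the slower cold-regulated (COR) genes whose dehydrins and plastid proteins protect membranes and enzymes during freezing. Transcripts of signalling genes are known as short-lived and those of many metabolic enzymes as long-lived.

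Arrays were scaled to a common distribution, so a signal shows a transcript's share of the RNA, and a stable transcript rises where the rest decays. In such bulk samples, fewer cells of a type and less RNA per cell cannot be told apart. The median intensity of the 6 h arrays was 64.21, 64.23, 63.87 and 60.19 at 0, 4, 8 and 12 h of cordycepin, within the range of 60.02 to 68.59 over the 16 cold arrays. Log2 values correlated at 0.974 between the 0 and 4 h arrays, 0.989 between 4 and 8 h and 0.991 between 8 and 12 h (Pearson, across genes). The 7 reference genes averaged 8.82, 8.76, 8.85 and 8.76 on the log2 scale, and 0 of the 7 passed the test below by limma, nor did any at an unadjusted p under 0.05. In the slope differences given further below they were less level. Of the 7, 1 was more negative than in the other cold series, and 2 were more negative and 3 more positive than at 22 °C. As a check of the cell type, 3 of 14 listed markers of differentiated cells (guard cells, pollen and the like) had a named probe set, and all 3 lay below the table median of 5.94 on all 4 arrays, while AUR1, a mitotic Aurora kinase of dividing cells, read 9.51, 9.36, 9.43 and 9.19.

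The question put to the course was which transcripts were lost and which went on rising once the cells had been given the drug. For 6961 genes a straight line was fitted to log2 intensity over the 4 times, in a limma fit shared with the other cold series, and a slope is given as log2 units per h of cordycepin. The slope was negative with an adjusted p under 0.05 for 826 genes (11.9% of those tested) and positive for 726 (10.4%). Of the 826 falling genes, 203 dropped at least 2-fold over 12 h and 28 at least 4-fold. Of the 726 rising genes, 165 gained at least 2-fold and 28 at least 4-fold. The median change over 12 h was −0.725 among the falling and 0.655 among the rising genes, against −0.035 for all genes. The direction was held in all 3 intervals by 598 of the falling and 498 of the rising genes. Among all 6961 genes, 1011 were lower and 860 higher in all 3 intervals. The slopes come from the same 4 arrays, so a held direction is no separate check of the calls. The counts lean on the end points, with 261 falling and 202 rising genes without the 0 h array and 167 and 261 without the 12 h array. When slopes were set against the 95th percentile of all slopes, as if the most stable transcripts stayed level, every slope was lowered by 0.0596. Most slopes are negative by this construction, and 5853 of the 6961 genes fell and 101 rose. Below these are called anchored slopes, and the anchored counts of a list are to be read beside those of all genes.

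The steepest falls that ran through all 3 intervals belonged mostly to loci without a name in the annotation used, with regulators of stress signalling among them. AT1G36060, unnamed here, read 11.27, 10.02, 9.13 and 8.46 at 0, 4, 8 and 12 h, a slope of −0.233 ± 0.023 (SE) and a 6.99-fold drop (adjusted p = 0.000184). The neighbouring loci AT4G27652 and AT4G27654 fell side by side. AT4G27652 read 10.32, 8.36, 7.45 and 7.02, and AT4G27654 read 7.83, 5.92, 4.88 and 4.54, which are 9.84-fold and 9.80-fold drops (adjusted p = 0.00635 and 0.00399). The first step was the largest in both, and without the 0 h array neither slope passed the test.

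WRKY22, a transcription factor of the response to microbial patterns, read 7.60, 6.35, 5.37 and 4.67. Its signal was lower on each later array, a 7.61-fold drop with a slope of −0.244 ± 0.030 (adjusted p = 0.000425). ZAP1 (WRKY1) was the other of 6 measured WRKY genes that fell, with a slope of −0.038, and 0 of the 6 rose. CML37 and CML38, calmodulin-like calcium sensors induced by stress, fell as 2 of 3 measured members of their group. CML37 read 7.86, 6.51, 5.41 and 5.23 (slope −0.225 ± 0.041, adjusted p = 0.0029). CML38 read 9.46, 7.90, 7.65 and 7.48 (slope −0.155 ± 0.029, adjusted p = 0.0035). Most of the loss of CML38 lay between the first pair of arrays, whereas CML37 went on falling to 8 h. Without the 0 h array CML37 and CML38 had slopes of −0.160 and −0.053 that did not pass the test, while WRKY22 passed whichever array was left out. ZAP1 did not pass without the 0 h or the 12 h array, or with all 20 arrays sharing 1 error estimate.

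STZ (ZAT10), a zinc-finger repressor induced by cold, drought and salt, read 11.08, 10.39, 9.35 and 9.07, a 4.01-fold drop (slope −0.176 ± 0.029, adjusted p = 0.00167). The loss of STZ passed the test whichever of the 4 arrays was left out. DEWAX (AT5G61590), an AP2/ERF repressor of wax synthesis, read 8.22, 6.43, 5.94 and 5.67, with a slope of −0.204 ± 0.030 (adjusted p = 0.00101). HAT2, an auxin-induced homeodomain factor, had a slope of −0.139, and KUA1 (AT5G47390), a MYB-related repressor of peroxidase genes, went the other way at 9.16, 10.01, 10.39 and 10.58, with a slope of 0.116 ± 0.013 (adjusted p = 0.000316). Of 17 other DNA-binding regulators measured, these 3 fell and KUA1 alone rose, and with anchored slopes 14 fell and 1 rose. DEWAX and HAT2 did not pass without the 0 h array. Of 11 bHLH factors, 4 fell and 0 rose. They were MYC3 and MYC4, jasmonate response factors, PYE, a regulator of iron deficiency, and LHW, a factor of vascular development, with slopes of −0.045, −0.087, −0.063 and −0.057. The median slope of the 11 was 0.000, and without the 12 h array 0 of the 11 passed by limma, with 2 lower and 1 higher at an unadjusted p under 0.05.

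Plant U-box ubiquitin ligases fell in 3 of 6 cases and rose in 0. PUB19, which dampens responses to abscisic acid, read 8.48, 7.70, 6.89 and 6.70 (slope −0.154 ± 0.025, adjusted p = 0.00155). PUB22 and PUB23 are related ligases that damp immune signalling. PUB22 read 8.68, 8.36, 7.75 and 7.64, and PUB23 read 9.26, 9.33, 8.53 and 8.06. In both the largest step was that from 4 to 8 h, with 2.06-fold and 2.30-fold drops over 12 h. Of the 3, 1 passed without the 0 h array. Of 10 ubiquitin-conjugating enzymes, which act a step earlier in the same pathway, 4 rose (UBC18, UBC28, UBC30 and UBC32) and 0 fell, and with anchored slopes 8 fell and 0 rose. The 4 slopes were small, between 0.034 and 0.041. The 4 rises became 2 with all 20 arrays sharing 1 error or without the 4 h or the 8 h array. They became 0 by limma without the 0 h array and again without the 12 h array, with 3 higher at an unadjusted p under 0.05 in either case. The difference between ligases and conjugating enzymes was not tested.

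**Figure D1:**
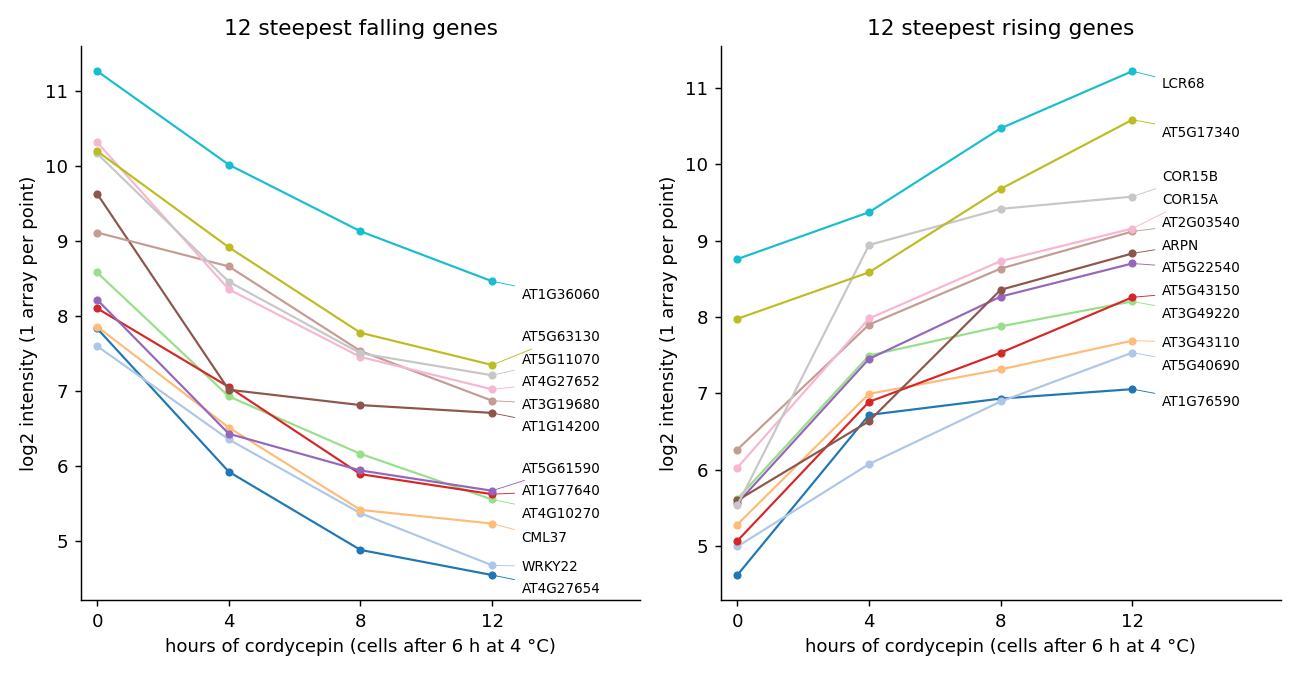
Log2 intensity (vertical axes) against hours of cordycepin (horizontal axes) in cells after 6 h at 4 °C, 1 array per point, for the 12 steepest falling genes (left) and the 12 steepest rising genes (right) among those past the threshold that moved the same way in all 3 intervals. WRKY22 ended at 4.67 and COR15B at 9.58, and COR15B made 3.41 of its gain of 4.04 in the first 4 h, whereas LCR68 and ARPN climbed on after it.

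The cold-regulated, late embryogenesis abundant (LEA) and dehydrin genes stood at the rising end of the course. Their list was chosen with earlier results of these data known, so its counts describe the course and do not test the class. Of 11 measured, 8 rose and 0 fell, with a median slope of 0.105 against −0.0013 for all 6961 genes, and with anchored slopes 5 rose and 4 fell. COR15B and COR15A encode small plastid proteins that protect the inner envelope during freezing. COR15B read 5.54, 8.94, 9.42 and 9.58, a 16.4-fold gain with a slope of 0.315 ± 0.053 (adjusted p = 0.0021). COR15A read 6.03, 7.98, 8.73 and 9.16, an 8.75-fold gain with a slope of 0.253 ± 0.027 (adjusted p = 0.000253). Before the drug both lay near or under the table median, and all 3 arrays with the drug were higher. They are related tandem copies, so their probe sets may share signal, and both courses may be partly the same measurement. This was not tested, since probe sequences were not used.

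Among the dehydrins, hydrophilic proteins that stabilise membranes and proteins in dry or cold cells, COR47 read 10.76, 11.57, 11.78 and 12.10. It was higher on each later array and gained 2.52-fold over 12 h (slope 0.105 ± 0.011, adjusted p = 0.000233). HIRD11 (AT1G54410) read 9.14, 9.58, 9.99 and 10.73, and its largest step was the last one (slope 0.129 ± 0.018). LTI30 read 10.47, 12.88, 12.75 and 12.59, so that its whole gain lay in the first 4 h. Its slope of 0.156 ± 0.044 (adjusted p = 0.0224) became −0.036 without the 0 h array. COR27, a cold-induced regulator tied to the clock, read 7.45, 8.46, 8.72 and 8.91, a 2.75-fold gain. The lipocalin TIL and LEA26 (AT2G44060) rose by less, with slopes of 0.030 and 0.025. With the 0 h array left out 4 of the 11 rose and the median slope was 0.038, and without the 12 h array 6 rose.

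Set against cells that had been in the cold longer and had not yet had the drug, the cordycepin course of the COR genes stopped short. COR15A stood at 9.16 after 12 h of cordycepin following 6 h of cold, against 10.64 in untreated cells after 12 h of cold and 11.65 after 24 h. COR47 stood at 12.10, against 13.18 and 13.65. LTI30 stood at 12.59, against 13.91 and 14.12. Each of these pairs is 1 array against 1, with no test, and in all 3 the drug-treated course ended at the lower level. On the log2 scale the untreated level after 12 h of cold was 4.61 above that after 6 h for COR15A and 2.41 above it for COR47. In the 22 °C cells before cordycepin COR15A, COR47 and LTI30 read 5.15, 5.32 and 4.23.

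**Figure D2:**
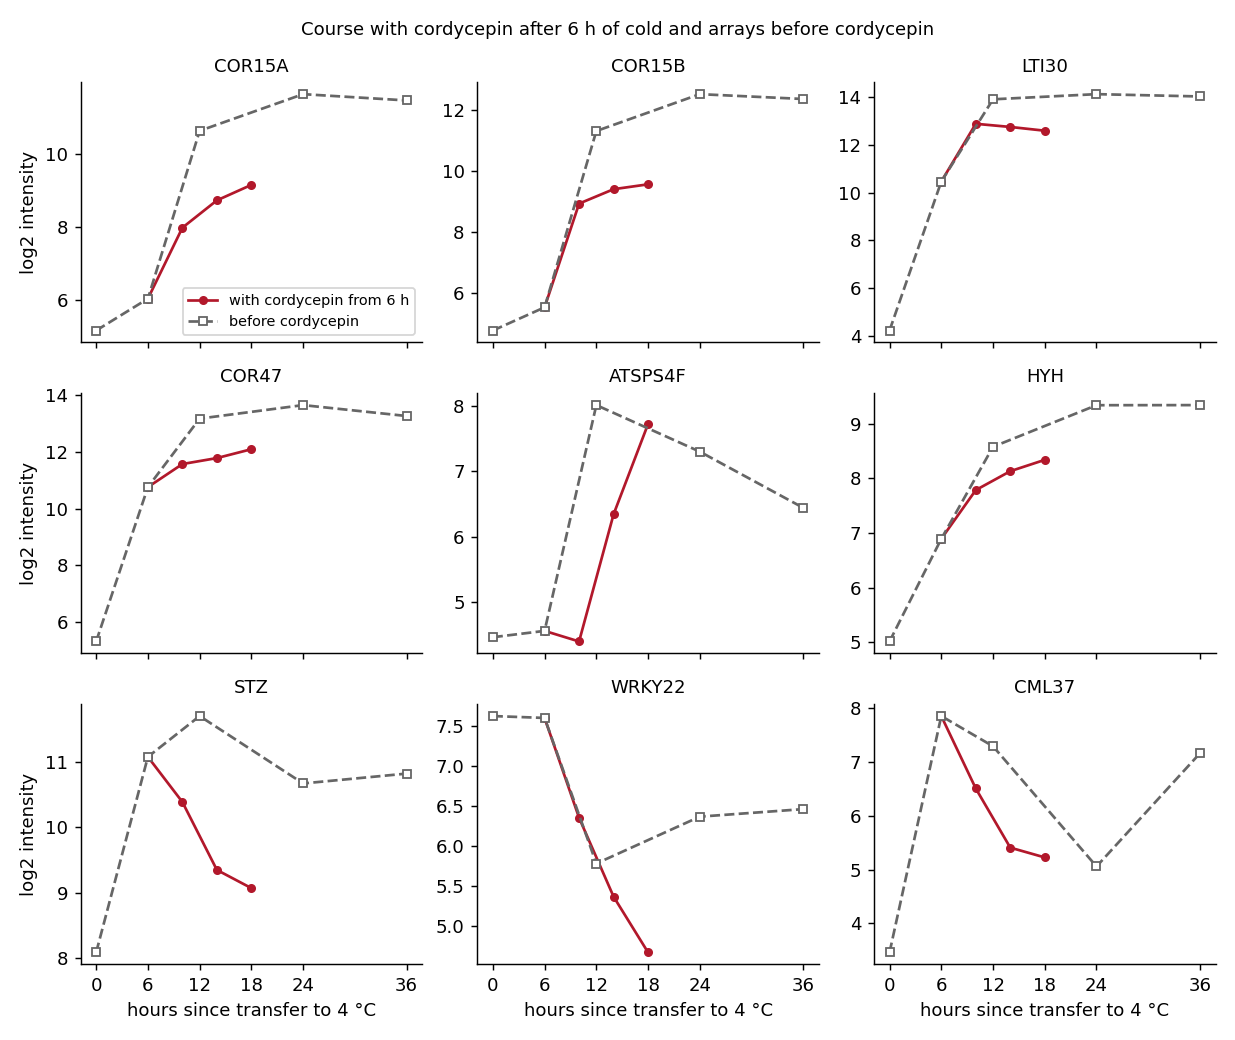
Log2 intensity (vertical axes) of 9 genes against hours since transfer to 4 °C (horizontal axes), 1 array per point, with the hours of cordycepin counted on from the 6 h of cold. The temperature during the cordycepin hours is not given, so those hours need not be hours at 4 °C. Filled points show the cordycepin course after 6 h of cold and open squares the arrays before cordycepin at 0 (22 °C), 6, 12, 24 and 36 h. COR15A, COR15B, LTI30, COR47 and HYH rose under the drug but ended below the untreated 12 h array, ATSPS4F reached 7.73, and STZ, WRKY22 and CML37 fell.

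Genes of light signalling and the clock rose in 4 of 12 cases and fell in 1, and with anchored slopes 2 rose and 8 fell. HYH, a bZIP factor close to HY5 that drives light-responsive genes, read 6.89, 7.79, 8.13 and 8.34 (slope 0.117 ± 0.015, adjusted p = 0.000433). GI, a clock component that promotes flowering, read 7.17, 7.68, 7.88 and 8.11 (slope 0.076 ± 0.009, adjusted p = 0.000425). FHL, which carries phytochrome A into the nucleus, and COR27 were the other risers, and XCT, a clock regulator, was the member that fell (slope −0.037). HYH and GI gained on every array, and both slopes passed the test whichever of the 4 arrays was left out. HYH and bZIP18 (AT2G40620) were the 2 of 12 bZIP factors that rose, and 0 of the 12 fell, although with anchored slopes bZIP18 had a slope of −0.006.

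ATSPS4F, a sucrose-phosphate synthase, rose late. It read 4.55, 4.39, 6.34 and 7.73, a 9.02-fold gain with a slope of 0.287 ± 0.059 (adjusted p = 0.00526), none of it in the first 4 h. Without the 12 h array the slope was 0.223 and did not pass. ARPN, the plantacyanin, a copper protein of the cell wall, read 5.60, 6.64, 8.36 and 8.83, a 9.39-fold gain (slope 0.285 ± 0.037, adjusted p = 0.000515). ARPN had a positive slope in every cordycepin course of the series, the others being 0.239, 0.226 and 0.287 after 12, 24 and 36 h of cold and 0.578 at 22 °C. LCR68, a defensin-like cysteine-rich peptide, read 8.76, 9.37, 10.47 and 11.22, a 5.5-fold gain (slope 0.212 ± 0.032). PDF2.1, another defensin-like peptide, read 4.80, 4.61, 5.59 and 6.97, and its neighbour on chromosome 2 is LCR68. Of 11 RALF and cysteine-rich peptides 4 rose and 0 fell, the other two risers being LCR69 and PDF1.4 with slopes of 0.059 and 0.064, and with anchored slopes 2 rose and 7 fell. The 4 rises became 2 without the 0 h array and 2 without the 12 h array.

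ATG8H, of the ubiquitin-like proteins that coat autophagosomes, read 4.20, 5.52, 6.07 and 6.49, a 4.87-fold gain with a slope of 0.185 ± 0.020 (adjusted p = 0.000263). It rose on every array from a level below the table median. Of 10 autophagy genes 4 rose and 0 fell, all 4 of them ATG8 members, and with anchored slopes 1 rose and 6 fell. The 4 rises became 1 without the 12 h array and 1 with all 20 arrays sharing 1 error. ATG8E, ATG8F and APG8H had slopes of 0.044, 0.036 and 0.042.

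Among cell wall genes, the expansins, which loosen the wall as cells grow, fell in 2 of 7 cases, EXPA4 reading 11.30, 10.65, 10.27 and 9.66 (slope −0.133 ± 0.028, adjusted p = 0.00586) and EXPA15 having a slope of −0.059. The xyloglucan endotransglucosylases, which cut and rejoin the chains between cellulose fibrils, rose in 2 of 5 cases. XTH19 read 5.87, 6.90, 7.45 and 7.98, a 4.31-fold gain (slope 0.172 ± 0.022). The other riser, its neighbour XTH18, had a slope of 0.052 that turned to −0.007 with anchored slopes. CSLC04, a glucan synthase for the xyloglucan backbone, read 7.83, 8.94, 9.01 and 9.10, so nearly all of its gain lay in the first 4 h. Of 12 cellulose synthase-like and GH9 genes 4 rose (CSLC04, CSLC12, CSLD2 and GH9B7) and GH9C2 fell. With anchored slopes 2 of the 5 endotransglucosylases fell and 1 rose, and 8 of the 12 in the last group fell and 0 rose. Leaving out the 0 h array, 0 of the 7 expansins and 0 of the 12 passed by limma, with 2 lower and 1 higher at an unadjusted p under 0.05, while 1 of the 5 endotransglucosylases rose and their median slope, 0.037 over all arrays, was −0.040. With the 12 h array left out, 1 expansin fell and 1 rose, 1 endotransglucosylase rose, and 2 of the 12 rose. Differences between these families were not tested.

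Histone, cell division and RNA polymerase genes that passed the test mostly fell, by small amounts. Of 5 measured H2B and centromeric H3 histones, 4 fell and 0 rose, with a median slope of −0.057. HTB11 read 9.97, 9.72, 9.52 and 9.08 (slope −0.071 ± 0.012, adjusted p = 0.00192). HTB2 read 12.04, 11.89, 11.75 and 11.27, a 1.70-fold drop (slope −0.061 ± 0.017, adjusted p = 0.0223). Each step was small and downward, and in both genes the last step was the largest. Of 18 cell division genes 6 fell and 1, the microtubule bundler ATMAP65-6, rose (slope 0.041, or −0.019 anchored). FBL17, the F-box protein that removes inhibitors of cyclin-dependent kinases, read 8.21, 7.81, 7.65 and 7.25 (slope −0.076 ± 0.013, adjusted p = 0.00263). AUR3, a mitotic kinase, had a slope of −0.057, and the spindle checkpoint genes BUB3.1 and BUB3.2, KINESIN-12B and 3xHMG-box2 were the other fallers, with slopes between −0.052 and −0.031.

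RNA polymerase subunits fell in 4 of 12 cases and rose in 0, the 4 being the large subunits of polymerase I (NRPA1 and NRPA2), which makes ribosomal RNA, and of polymerase III (NRPC1 and NRPC2), which makes transfer RNA. NRPA1 read 8.15, 7.92, 7.82 and 7.36, a 1.72-fold drop (slope −0.061 ± 0.017, adjusted p = 0.0227). NRPC1 read 6.02, 5.38, 5.38 and 5.06, near the table median of 5.94 at 0 h and below it on the later arrays (slope −0.072 ± 0.015). Of 13 ribosome biogenesis genes IMP4, a factor of ribosomal RNA processing, and PCN fell, both with a slope of −0.040, and 0 rose. Calls in these groups were fewer without an end array. Over all genes 826 falls likewise became 261 without the 0 h array and 167 without the 12 h array. Median slopes of the histone, cell division, polymerase and ribosome biogenesis genes were −0.077, −0.015, −0.016 and −0.038 without the 0 h array. Without the 12 h array they were −0.037, −0.020, −0.008 and −0.004. Of the 5 histones 2 still fell without the 0 h array. With the 0 h array left out, 0 of the 18 cell division genes and 0 of the 12 polymerase subunits passed by limma, with 3 and 2 lower at an unadjusted p under 0.05. Without the 12 h array 0 of the 18, 0 of the 12 and 0 of the 5 histones passed, with 4, 1 and 2 lower at an unadjusted p under 0.05.

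Of 62 plastid-encoded genes 16 rose and 0 fell, with a median slope of 0.037, and with anchored slopes 1 rose and 25 fell. The large Rubisco subunit rbcL read 9.71, 9.56, 10.70 and 11.01, a 2.47-fold gain (slope 0.126, adjusted p = 0.00953). The photosystem II gene psbH read 7.66, 7.63, 8.07 and 8.60, a 1.91-fold gain (adjusted p = 0.00335). Both were level to 4 h and then gained. Without the 12 h array 0 of the 62 passed by limma, with 4 higher at an unadjusted p under 0.05, and without the 0 h array 25 did. Of 29 nuclear photosynthesis genes 4 rose and 2 fell, shares near those of all genes, and with anchored slopes 0 rose and 27 fell. With the 0, 4, 8 or 12 h array left out, 0, 2, 1 and 1 of the 29 rose. HEMA2, an enzyme of the first committed step of tetrapyrrole synthesis, was the steepest of the risers (slope 0.056), and ATPC2, a γ subunit of the plastid ATP synthase, the steepest of the fallers (slope −0.056). Mitochondrial dehydrogenases and cytochrome c rose in 6 of 16 cases and fell in 0, and with anchored slopes 0 rose and 12 fell. With anchored slopes 101 of all 6961 genes rose and 5853 fell. NDB2, an external NADH dehydrogenase of the alternative pathway, read 7.05, 7.24, 7.73 and 7.95 (slope 0.079, adjusted p = 0.00348), and the other five had slopes between 0.024 and 0.042. In that list 1 gene rose without the 0 h array and 2 without the 12 h array. Of 12 mitochondrion-encoded genes 0 passed by limma, with 1 higher at an unadjusted p under 0.05 and a median slope of 0.017. That turns on the end arrays, since 4 of the 12 rose and the median was 0.071 without the 0 h array, and the median was −0.032 without the 12 h array.

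**Figure D3:**
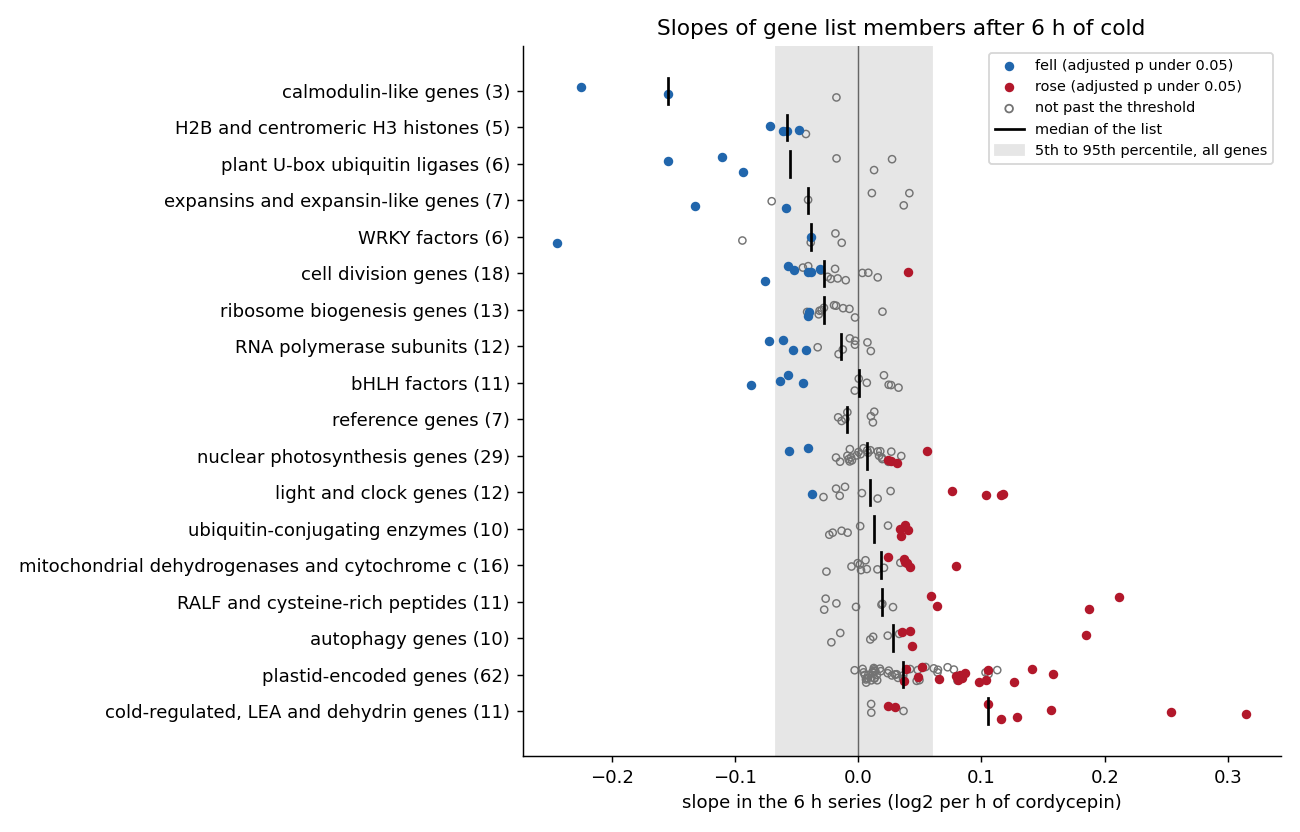
Slopes in the 6 h series in log2 per h of cordycepin (horizontal axis) of the members of 18 gene lists (rows, with the number measured), 1 point per gene, the bar marking the list's median and the grey band the 5th to 95th percentile of all genes. The medians of the calmodulin-like, histone and U-box genes lie left of 0 and that of the cold-regulated genes lies at 0.105, and with anchored slopes that one stays above 0 at 0.046 while the other medians shown to the right of 0 move below it.

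Other groups gave few calls, counted by limma. Glycosyltransferases fell in 3 and rose in 2 of 18 cases, UGT85A2 having a slope of −0.089 and UGT87A2 one of 0.091, or 0.031 without passing when anchored. Serine carboxypeptidase-like genes rose in 3 and fell in 1 of 13 cases, and glutathione transferases rose in 2 of 4 (GSTU28 and GSTL3). With anchored slopes 14 of the 18, 11 of the 13 and 1 of the 4 fell, beside 5853 of all 6961 genes. Leaving out the 0 h array left 0 calls among the 18 by limma, with 2 lower and 2 higher at an unadjusted p under 0.05, and leaving out the 12 h array left 0 among the 13, with 1 lower and 3 higher. The 18 heat stress and co-chaperone genes gave 1 rise, and the 9 MADS-box factors, 3 pectin methylesterases, 4 peroxidases, 6 tetraspanins, 8 Mediator and THO subunits and 9 exocyst subunits gave 0 calls. At an unadjusted p under 0.05 these last 6 groups had 1 lower, 2 higher, 0, 1 lower, 0 and 1 higher. CBF1, CBF2, CBF3, RD29A, LTI65, KIN1 and KIN2 were not analysed here.

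The size of the changes was then counted by interval. From 0 to 4 h, 211 genes were more than 1.5-fold lower (3.03%) and 361 more than 1.5-fold higher (5.19%), 1 array against 1 with no test. From 4 to 8 h the counts were 114 (1.64%) and 80 (1.15%), and from 8 to 12 h they were 82 (1.18%) and 42 (0.603%). Among the falling genes the largest step was the first in 345, the second in 169 and the last in 312, and among the rising genes in 345, 258 and 123. All genes shifted between arrays as well, with median steps of −0.045, 0.051 and −0.050 in the 3 intervals, and the part of these shifts in the counts was not tested. The largest early gains were those of COR15B, AT5G38710, AT3G55580, LTI30 and AT1G78410. AT5G38710 read 4.50, 7.06, 7.00 and 6.88, and AT3G55580 read 6.65, 9.19, 9.10 and 8.86. As in LTI30 the later arrays lay slightly below the 4 h array, and without the 0 h array the slopes turned negative, −0.023 and −0.042. Late gains were led by ATSPS4F, PDF2.1, AT2G03390, AT1G08310 and AT5G09570. AT2G03390 read 4.58, 4.54, 6.11 and 7.23. CCS, the copper chaperone of superoxide dismutase, did neither, at 7.96, 5.43, 6.41 and 4.85. It had the largest loss of the last interval, and its 8 h value lay above the 4 h one.

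**Figure D4:**
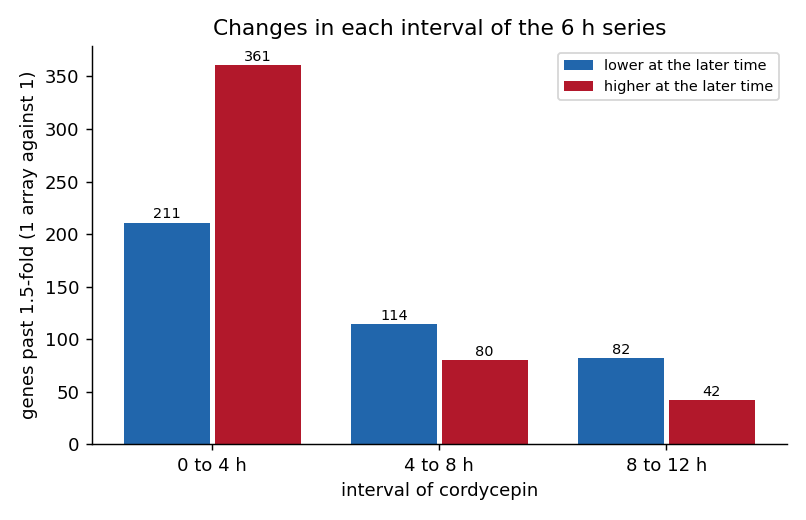
Number of the 6961 genes (vertical axis) that were more than 1.5-fold lower (left bars) or higher (right bars) at the later of 2 neighbouring arrays of the 6 h series, for the 3 intervals of cordycepin (horizontal axis). Gains outnumbered losses in the first interval, 361 against 211, and losses outnumbered gains in the next ones.

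The slopes after 6 h of cold were then set against the mean slope after 12, 24 and 36 h, in the same fit. The 6 h slope was more negative for 724 genes (10.4%) and more positive for 554 (7.96%). When arrays were centred on the reference genes, these counts were 267 and 1066. Before centring, 1 of the 7 reference genes was itself among the 724. They were 48 and 100 without the 0 h array of the 6 h series, and 45 and 308 without its 12 h array. Across genes the 6 h slopes had a Spearman correlation of 0.211 with the 12 h slopes, 0.247 with the 24 h slopes and 0.468 with the 36 h slopes, given as a description.

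Of the cold-regulated genes 8 of 11 were more positive after 6 h of cold and 0 more negative, or 9 and 0 on reference genes. The list was chosen with earlier results of these data known, so this count is a description only. COR15A had a slope of 0.253 after 6 h, against 0.012, 0.007 and −0.024 after 12, 24 and 36 h (difference 0.255 ± 0.031, adjusted p = 0.00088). COR47 had a slope of 0.105, against 0.004, −0.025 and −0.015 (difference 0.117 ± 0.012, adjusted p = 0.000355). HYH differed by 0.122 (adjusted p = 0.0014) and GI by 0.073 (adjusted p = 0.00201, or 0.0752 without the 0 h array of the 6 h series). All 4 genes began lower after 6 h of cold than after the longer exposures, where the slopes of COR15A and COR47 lay near 0. The starting arrays are part of the slopes, so this is not a separate observation.

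Several genes had a positive slope after 6 h of cold and a negative one after 12 h, with slopes nearer 0 after 24 and 36 h. ATSPS4F gained to 7.73 at 12 h of cordycepin after 6 h of cold, while after 12 h of cold it began at 8.02 and ended at 4.46 (difference from the other cold series 0.383 ± 0.068, adjusted p = 0.0045). XTH19 ended at 7.98 after 6 h of cold and at 6.26 after 12 h of cold, where it began at 8.30 (difference 0.257 ± 0.026, adjusted p = 0.000318). LCR68 ended at 11.22 after 6 h of cold, while after 12 h of cold it began at 10.89 and had a slope of −0.131 (difference 0.258 ± 0.037, adjusted p = 0.00179). AT5G17340 and AT3G43110, unnamed here, had slopes of 0.223 and 0.188 after 6 h, against −0.287 and −0.326 after 12 h. The slopes after 24 and 36 h were 0.004 and −0.043 for ATSPS4F and 0.004 and −0.011 for LCR68. They were −0.075 and −0.024 for XTH19, −0.088 and −0.096 for AT5G17340, and −0.118 and −0.097 for AT3G43110. All 5 of these genes were lower before cordycepin after 6 h of cold than after 12 h. Those 0 h arrays also enter the slopes, so the lower start is not separate from the difference in slope. Without the 12 h array of the 6 h series the difference of ATSPS4F, 0.320, did not pass.

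In the other direction, WRKY22 had a slope of −0.244 after 6 h of cold, against −0.021, −0.101 and −0.108 after 12, 24 and 36 h (difference −0.167 ± 0.035, adjusted p = 0.00825). It began at 7.60 after 6 h of cold and at 5.78 after 12 h, on arrays that also enter these slopes. FBL17 differed by −0.076 ± 0.016 (adjusted p = 0.00739), with slopes between −0.010 and 0.012 in the other cold series, and AUR3 by −0.088 (adjusted p = 0.00322). NRPA1 differed by −0.095 ± 0.020 (adjusted p = 0.00834). Of the 18 cell division genes 7 were more negative and 1 more positive, or 2 and 1 on reference genes. Of the 12 polymerase subunits 5 were more negative, or 4 on reference genes, and of the 13 ribosome biogenesis genes 5, or 2. Without the 0 h array of the 6 h series WRKY22, FBL17 and NRPA1 did not pass (adjusted p = 0.161, 0.118 and 0.0752), and without its 12 h array FBL17, AUR3 and NRPA1 did not (adjusted p = 0.106, 0.0707 and 0.158). Some fast losers did not differ by this test. AT4G10270 had slopes of −0.246 after 6 h and −0.204, −0.299 and −0.298 after 12, 24 and 36 h (difference 0.020 ± 0.048, adjusted p = 0.812). STZ had −0.176, against −0.271, −0.190 and −0.194 (difference 0.042 ± 0.033, adjusted p = 0.414).

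**Figure D5:**
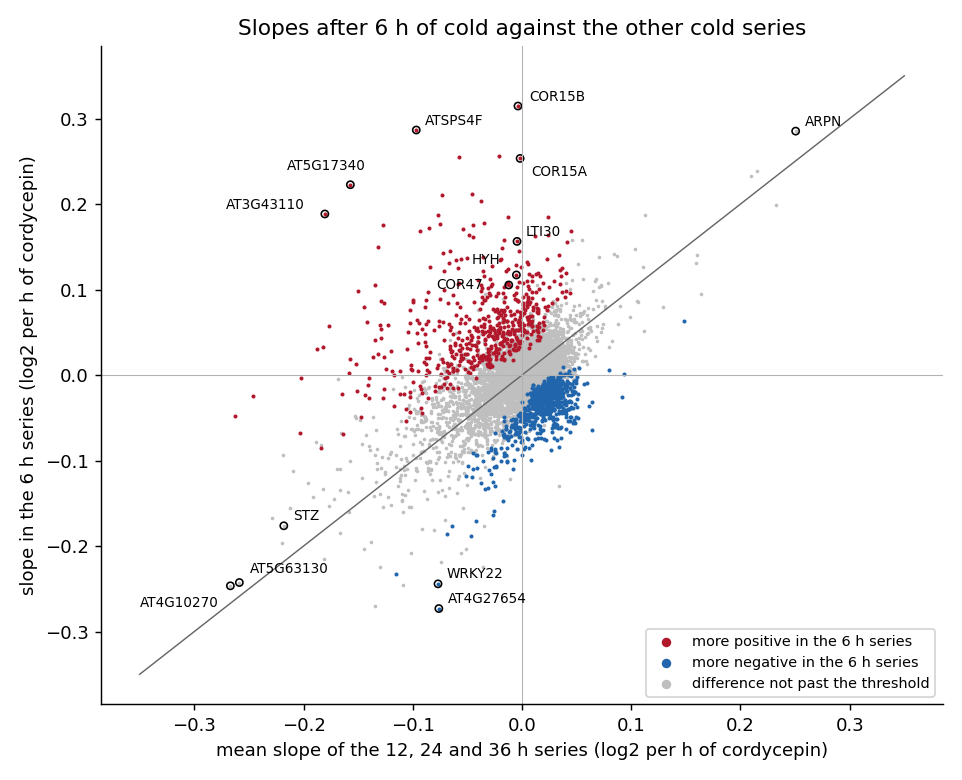
Slope in the 6 h series (vertical axis) against the mean slope of the 12, 24 and 36 h series (horizontal axis), both in log2 per h of cordycepin, 1 point per gene, with the line of equal slopes. COR15A at 0.253 lies above 0 with a mean near 0 in the other series, while AT4G10270 and ARPN lie near the line, and when centred on reference genes 1066 genes lie above it past the threshold and 267 below.

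Against 22 °C the 6 h slopes were more negative for 1471 genes (21.1%) and more positive for 2492 (35.8%). The courses had different lengths, 12 h after cold and 4 h at 22 °C, and slopes at 22 °C were far wider, with an interquartile range of 0.041 in the 6 h series and 0.308 at 22 °C. When the 22 °C slopes were divided by 7.46, the ratio of these ranges, the counts were 127 and 502. Differences with scaled slopes are in this smaller unit, so their sizes cannot be set against the unscaled differences. Of the 826 genes falling after 6 h of cold, 710 also had a negative slope at 22 °C, as had 262 of the 726 rising genes and 4119 of all 6961, counts that share no array between the series.

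The histone gene HTB2 fell by 0.769 on the log2 scale over 12 h of cordycepin after 6 h of cold, while at 22 °C it read 12.12, 11.56, 9.75 and 8.54 at 0, 0.5, 2 and 4 h. Its slopes of −0.061 and −0.906 differed by 0.845 ± 0.065 (adjusted p = 5.12e-07), or by 0.060 with scaled slopes, which did not pass (adjusted p = 0.116). AUR1 showed the same contrast, with slopes of −0.022 after cold and −0.657 at 22 °C (difference 0.635 ± 0.034, adjusted p = 3.91e-08). WRKY22 lost signal in both, at −0.244 and −0.747 (difference 0.503, adjusted p = 0.0268, or −0.144 and 0.163 with scaled slopes), and by 0.5 h at 22 °C it already read 5.46, with 7.62 before the drug. Without the 12 h array of the 6 h series that difference did not pass (adjusted p = 0.061). The largest positive difference among genes past the threshold was that of AT5G16250, with slopes of −0.054 after cold and −1.24 at 22 °C. The most negative was that of AT1G22030, with −0.062 and 0.737. AT2G03540 was higher on every array with the drug in both, reading 6.27, 7.90, 8.63 and 9.12 after cold and 5.21, 9.78, 10.76 and 10.59 at 22 °C (difference −0.770, adjusted p = 0.0437, or 0.098 and 0.604 with scaled slopes), and this difference did not pass without the 4, the 8 or the 12 h array of the 6 h series. CML37 read 7.86 before the drug after 6 h of cold and 3.46 at 22 °C, where it lay between 3.42 and 3.66 throughout.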

How the data were processed

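Each of the 20 conditions was measured with 1 Affymetrix ATH1 array of total RNA. The authors deposited 1 intensity per probe set on a linear scale, made with RMA in affy per the submitters' processing notes, in which no version is given. Of 22810 probe sets, 13513 were paired with 1 gene symbol, 503 with several and 8794 with none in the platform annotation, and 13436 were updated through the gene ID of RefSeq's table. Intensities were taken to log2. A gene's probe set of highest mean signal was used, and 6961 of 13355 genes read at least the table median (61.39) on 2 or more of the 20 arrays. Straight lines were fitted with limma (version 3.58.1 under R 4.3.3, trend in eBayes) over the 16 cold arrays with 1 intercept and 1 slope per series (8 residual degrees of freedom), and over all 20 arrays (10) for the comparison with 22 °C. p-values were adjusted by Benjamini-Hochberg over all genes, with a threshold of 0.05. Interval changes past 1.5-fold compare 1 array with 1. The array number per condition limits the precision.

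The 42 gene lists rest on symbols in the annotation, since no product names were used. Members and lists were chosen with earlier results of these data known. The lists were rebuilt on the annotation's names after the files were seen. Some planned groups, such as cytosolic ribosomal proteins, proteasome subunits and splicing factors, are not among them. Named genes are the 12 steepest each way that moved the same way in every interval, up to 3 per list by p, the 6 largest each way per slope difference and the 5 largest steps each way. Other list members past the test, and genes named from their place in a figure, were chosen after their values were seen. The fit was tested on simulated data with independent noise about straight lines. Such data cannot show how curved courses or shifts of a whole array move the counts. Alternatives were reference-gene centring, anchored and scaled slopes, other filters, no trend, all probe sets, the 6 h series alone, all 20 arrays and leaving out each array. Sequences were not used here.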

Additional observations from a re-analysis of the deposited data

Results flagged for a closer look

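The 4 counts of genes whose slope differed between the 6 h course and another course came from a test of the difference itself in limma. The slope after 6 h of cold was more negative than the mean of the other cold series for 724 genes and more positive for 554. It was more negative than at 22 °C for 1471 genes and more positive for 2492. The first pair of counts moves with the zero point and with the end arrays of the 6 h series, and the second pair with the width of the slopes at 22 °C, as given in the values under other settings. Each condition has 1 array, so no array was tested against a replicate.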

How the results depend on the processing

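No paired analysis was possible because each condition has 1 array. The falling and rising counts (826 and 726) were 251 and 317 with all 20 arrays sharing 1 error, 470 and 351 from the 6 h series alone, 5853 and 101 with anchored slopes, and 1474 and 1400 over all probe sets. Leaving out each array gave 167 to 860 falling and 202 to 739 rising genes, and 176 and 155 of the original calls were shared without the 0 h array, 161 and 233 without the 12 h array. Against the other cold series (724 and 554), the counts were 267 and 1066 on reference genes, 312 genes were lower against the 24 and 36 h series, and leaving out an array gave 45 to 821 and 100 to 686. Against 22 °C (1471 and 2492), 3196 were lower with no filter, 127 and 502 with scaled slopes, and 1262 to 1464 and 2295 to 2459 with an array left out. Where a count moved through fewer or more arrays or probe sets tested the construction changed it, and otherwise the cause was not tested.

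Anchored slopes turned small gains negative: HEMA2 −0.0038, UBC28 −0.025, UBC32 −0.022, UBC18 −0.019, UBC30 −0.025, GH9B7 −0.026, CSLD2 −0.0076, XTH18 −0.0074, ATMAP65-6 −0.019, LCR69 −5.7e-05, AT2G40620 −0.0064, AT2G44060 −0.035, TIL −0.030, ATG8E −0.016, APG8H −0.017, ATG8F −0.024 and GSTL3 −0.0090. Without the 0 h array LTI30 became −0.036, AT3G55580 −0.042 and AT5G38710 −0.023, the lowest of their values with an array left out, and 0.286, 0.307 and 0.312 without the 12 h array were the highest. With scaled slopes the differences from 22 °C of AT2G03540 and WRKY22 became 0.098 and −0.144. Signal near background limits the low end, since 155 of the rising genes lay under the table median at 0 h and 197 of the falling ones at 12 h.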

Other observations

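Further groups had calls in both directions, where 11.9% of all genes tested fell and 10.4% rose. Of 12 ubiquitin-specific proteases, which remove ubiquitin from proteins, 3 fell (UBP21, UBP23 and UBP26) and 2 rose (UBP18 and UBP25). UBP18 read 5.57, 6.19, 6.47 and 6.46 at 0, 4, 8 and 12 h, and UBP26 read 6.72, 6.36, 6.35 and 6.04. Of 13 ESCRT and VPS genes, which sort membrane proteins into multivesicular bodies, 3 rose and 1, ELC, fell. VPS2.1 read 8.39, 8.55, 8.87 and 8.99 (slope 0.053 ± 0.008, adjusted p = 0.00135 by limma), while ELC read 8.35, 8.13, 8.06 and 7.76. With anchored slopes 9 of the 12 proteases and 11 of the 13 ESCRT and VPS genes fell and 0 rose. Of all 6961 genes, 5853 then fell and 101 rose. Without the 0 h array 0 of the 12 passed by limma, with 4 lower and 1 higher at an unadjusted p under 0.05, and 1 of the 13 rose.

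A stretch of chromosome 2 was noticed after the values were seen. Of 43 genes tested with locus numbers from AT2G02 to AT2G03, 8 rose and 6 fell, where 10.4% of all genes tested rose and 11.9% fell. Of the risers, 5 (PDF2.1, LCR68, ARPN, AT2G03390 and AT2G03540) had slopes past 0.15. The stretch was picked from these same values, so the counts cannot test for a cluster. What they share beyond their place was not tested.

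Of 5567 probe sets without a gene name here that passed the filter, 621 fell and 663 rose. These shares lie near those of the 6961 genes, 11.9% and 10.4%. The steepest of those moving through all intervals were 255926_at, with 10.75, 8.62, 7.48 and 7.17, and 253087_at, with 5.40, 6.63, 7.72 and 8.85.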
